A study of Culex quinquefasciatus with 7 samples.

Results

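The genes described here are 152 of the 20305 genes measured in whole adult females of Culex quinquefasciatus, the southern house mosquito. They were detected, at levels from low to very high, just after eclosion, when the adult leaves the pupal skin. On the log scale they passed the midpoint of their decline between 12 and 24 h. They were chosen from the measured values themselves. L is log2(FPKM + 1), where FPKM counts fragments relative to the length of a gene and to all mapped fragments. A gene was taken when it had at least 5 FPKM at 2 h and L was lower by at least 2 (4-fold) at 72 h than at 2 h. In addition, under 50% of this log2 fall had to have been reached at 12 h, and at least 50% of it at 24 h. Of all 338 genes with a fall of that size, 143 had already reached 50% of it at 12 h and 43 had reached under 50% at both 12 and 24 h. These are called below the genes mostly lost by 12 h and the genes held through 24 h, and the 152 the genes held until after 12 h. The names refer to shares of the log2 fall, not to a level kept. In FPKM, the sum over the 152 genes at 12 h was 47.2% of that at 2 h.

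The 7 libraries were taken at 2, 12, 24, 36, 48, 60 and 72 h after eclosion, 1 per time, each from the whole bodies of 200 pooled females. Rearing had 12 h each of light and dark, and the labels name no strain, diet or treatment that differs between times. From 12 h on the libraries were also 12 h apart, so steps of age and time of day cannot be told apart. FPKM follow a transcript's part of the library, not its amount in an animal. There is no replicate, so a difference between single times has no error of its own. A value at 2, 12, 24 or 72 h entered the choice of the genes and is given as a description, with no test. The libraries at 36, 48 and 60 h did not enter it. Since whole bodies were pooled, fewer cells of a type and less RNA per cell cannot be told apart.

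Between emergence and the first blood meal a female mosquito completes the body it emerged with. The cuticle hardens and darkens, larval and pupal tissues such as the larval fat body are broken down, and under juvenile hormone the fat body and ovary become able to respond to a later blood meal. This previtellogenic period is the stage the 7 times cover. None of the genes can be tied to any of these processes here. The table gives only identifiers that start with CPIJ, and the reference table used, with 18458 genes, holds 0 of these 20305. Functions, sequences and positions are therefore not given, the planned gene lists could not be built, and the labelled tissue could not be set against marker genes. Genes are given by identifier for the extremes of each comparison.

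Across libraries, the relative depth read from the steps of the low values was between 0.744 (60 h) and 1.19 (72 h) of the 2 h library. Over the 2761 genes at 10 FPKM or more in all 7 libraries, the median ratio to a gene's geometric mean was 1.15 at 72 h and 0.772 at 2 h, which differ by 0.57 on the log2 scale. After rescaling by these ratios the same rule chose 239 genes, 151 of the 152 among them.

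The 152 genes held 24.6% of all FPKM in the 2 h library, 11.7% in the 12 h library and 2.81% in the 24 h library. In the libraries at 36, 48, 60 and 72 h they held 1.98%, 1.36%, 1.24% and 1.097%. These percentages do not depend on any scaling between libraries. The summed FPKM of the genes was 5451 at 72 h, against 106140 at 2 h, a 19.5-fold difference. By the rule all 152 were at least 2-fold lower at 72 h, where 9.43% of all 8678 genes that reached 5 FPKM in either library were. The 10 members most abundant at 2 h made up 35.2% of this sum at 72 h and 60.4% of it at 2 h. Among the 20 most abundant genes of a library, 12 of those at 2 h belonged to the set, 7 of those at 12 h and 0 from 24 h on. The sum over all other genes was 1.51 times as high at 72 h as at 2 h.

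**Figure D1:**
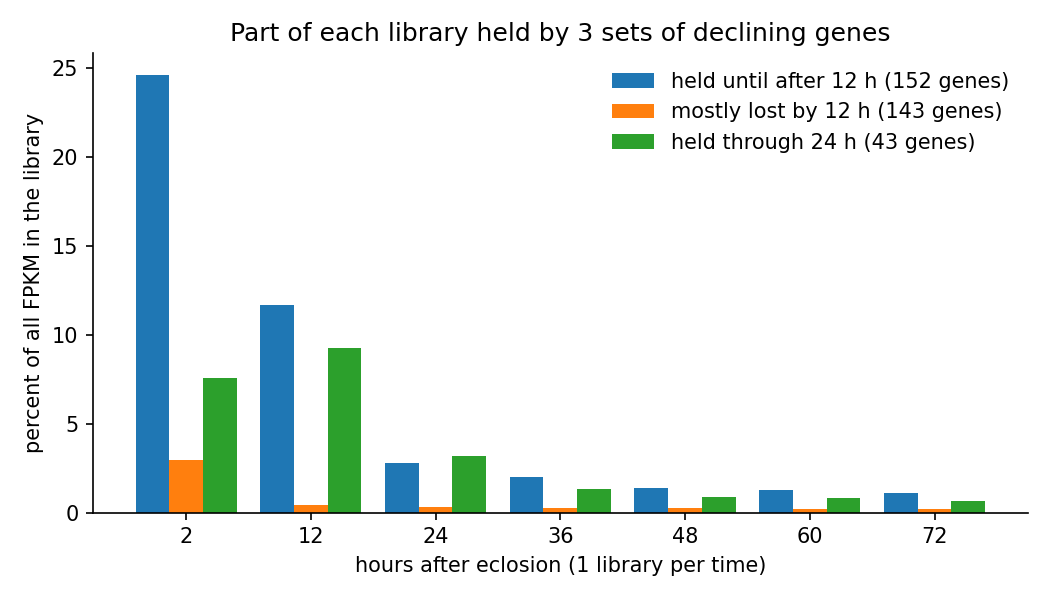
Percent of all FPKM (vertical axis) in each library, by hours after eclosion, held by the genes held until after 12 h, those mostly lost by 12 h and those held through 24 h. The 152 genes held until after 12 h start at 24.6%, stand at 11.7% at 12 h, and lie at 2.81% or less from 24 h on. The names of the sets refer to shares of the log2 fall.

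The genes mostly lost by 12 h, about as many, held only 2.93% of all FPKM at 2 h and 0.414% at 12 h. The genes held through 24 h had 7.58%, 9.22% and 3.17% of it in the libraries at 2, 12 and 24 h. The rule asked for the same minimum level at 2 h in each set, and the median level there was 74.8 FPKM in the genes held until after 12 h, 37.1 FPKM in those mostly lost by 12 h and 215 FPKM in those held through 24 h.

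Within the set, levels at 2 h spanned 5.09 to 12982 FPKM, with a median of 74.8 FPKM and an interquartile range of 21.2 to 398 FPKM. In the libraries from 12 to 72 h the median was 34.04, 8.32, 4.16, 3.76, 2.88 and 3.66 FPKM. The set thus covers genes of very different abundance. At 72 h no gene reached 1000 FPKM, 17 were at 100 FPKM or more, 32 at 10 to 100, 61 at 1 to 10 and 42 under 1 FPKM, 2 of them listed at 0. At 2 h, 22 genes were at 1000 FPKM or more, 46 at 100 to 1000, 67 at 10 to 100 and 17 at 5 to 10 FPKM.

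**Figure D2:**
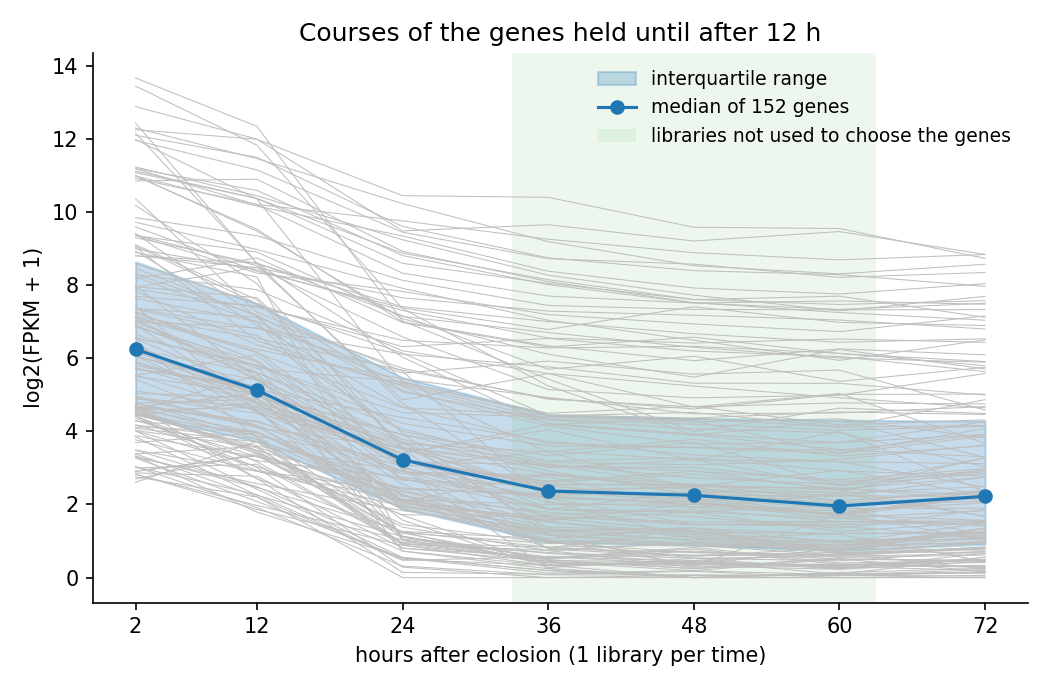
log2(FPKM + 1) (vertical axis) of each of the 152 genes (grey lines) by hours after eclosion, with their median (points) and interquartile range (blue band); the green band marks the libraries at 36, 48 and 60 h, which did not choose the genes. All lines run downward between 12 and 24 h, with slopes that differ widely, and the median flattens after 36 h, where it stood at 4.16 FPKM.

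The 2 most abundant members at 2 h also had the 2 largest falls on the log2(FPKM + 1) scale, but not with a pseudocount of 0.1. There the log2 change was -10.35 in CPIJ013785 and -9.75 in CPIJ009101, both past the -9.23 of CPIJ012572. CPIJ012572 had 12982, 5190, 129, 42.1, 14.9, 23.9 and 21.4 FPKM from 2 to 72 h, a log2 change of -9.18. CPIJ003588 had 11145, 3628, 163, 36.9, 13.9, 10.3 and 8.86 FPKM, a log2 change of -10.14. At 24 h the level was 40.3-fold lower than at 12 h in CPIJ012572 and 22.3-fold lower in CPIJ003588. CPIJ003588 was lower in every successive library, which 14 of the 152 genes were, while CPIJ012572 had its lowest value at 48 h.

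The first step, to 12 h, was small by the choice of the genes. The median log2 change to 12 h was -0.85, with an interquartile range of -1.22 to -0.49, and 57 genes were at least 2-fold lower, where 6.22% of the 6764 genes that reached 5 FPKM in either library were. The largest changes of this step were in CPIJ016655 and CPIJ012466. CPIJ016655 had 5516, 386, 26.1, 3.75, 4.07, 4.05 and 8.78 FPKM from 2 to 72 h. CPIJ012466 had 4567, 387, 64.2, 17.2, 19.4, 16.3 and 28.2 FPKM. Each was more than 10-fold lower at 12 h, and belongs to the set only because its later fall was as large again on the log scale.

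At the other end, 16 genes stood higher at 12 h than at 2 h. Only CPIJ010705 did so by at least 2-fold (11.2% of all 6764 genes did), with 5.09, 12.2, 0.893, 0.673, 0.216, 0.427 and 0.122 FPKM. CPIJ018530 came next, with 23.05, 45.1, 8.00, 7.50, 4.62, 6.64 and 3.77 FPKM. After rescaling, 0 members were at least 2-fold higher at 12 h. These 2 genes peaked at 12 h and ended the series below their 2 h level like the rest.

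On the log2 scale the step to 24 h was the steepest. All 152 genes were lower at 24 h than at 12 h, with a median log2 change of -1.70 and an interquartile range of -2.51 to -1.22. Of the 139 members that reached 5 FPKM in either library, 120 were at least 2-fold lower, where 3.99% of all 7578 such genes were, and 0 were at least 2-fold higher, where 9.53% were. It was the largest fall of the series in 123 genes, and the largest per hour in 112. The first step was the largest in 21 genes and the step to 36 h in 6. Since the rule requires the 50% point to lie between 12 and 24 h, this order follows largely from the choice.

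The single largest fall of this step was in CPIJ013785, which had 474, 298, 1.02, 0.317, 0.308, 0.206 and 0.264 FPKM from 2 to 72 h. Its level at 24 h was 293-fold lower than at 12 h, and it had passed to under 0.4 FPKM by 36 h. CPIJ012572, already described, came next. In both, the level at 12 h was under 3-fold below that at 2 h, so the fold of the second interval was many times that of the first.

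**Figure D3:**
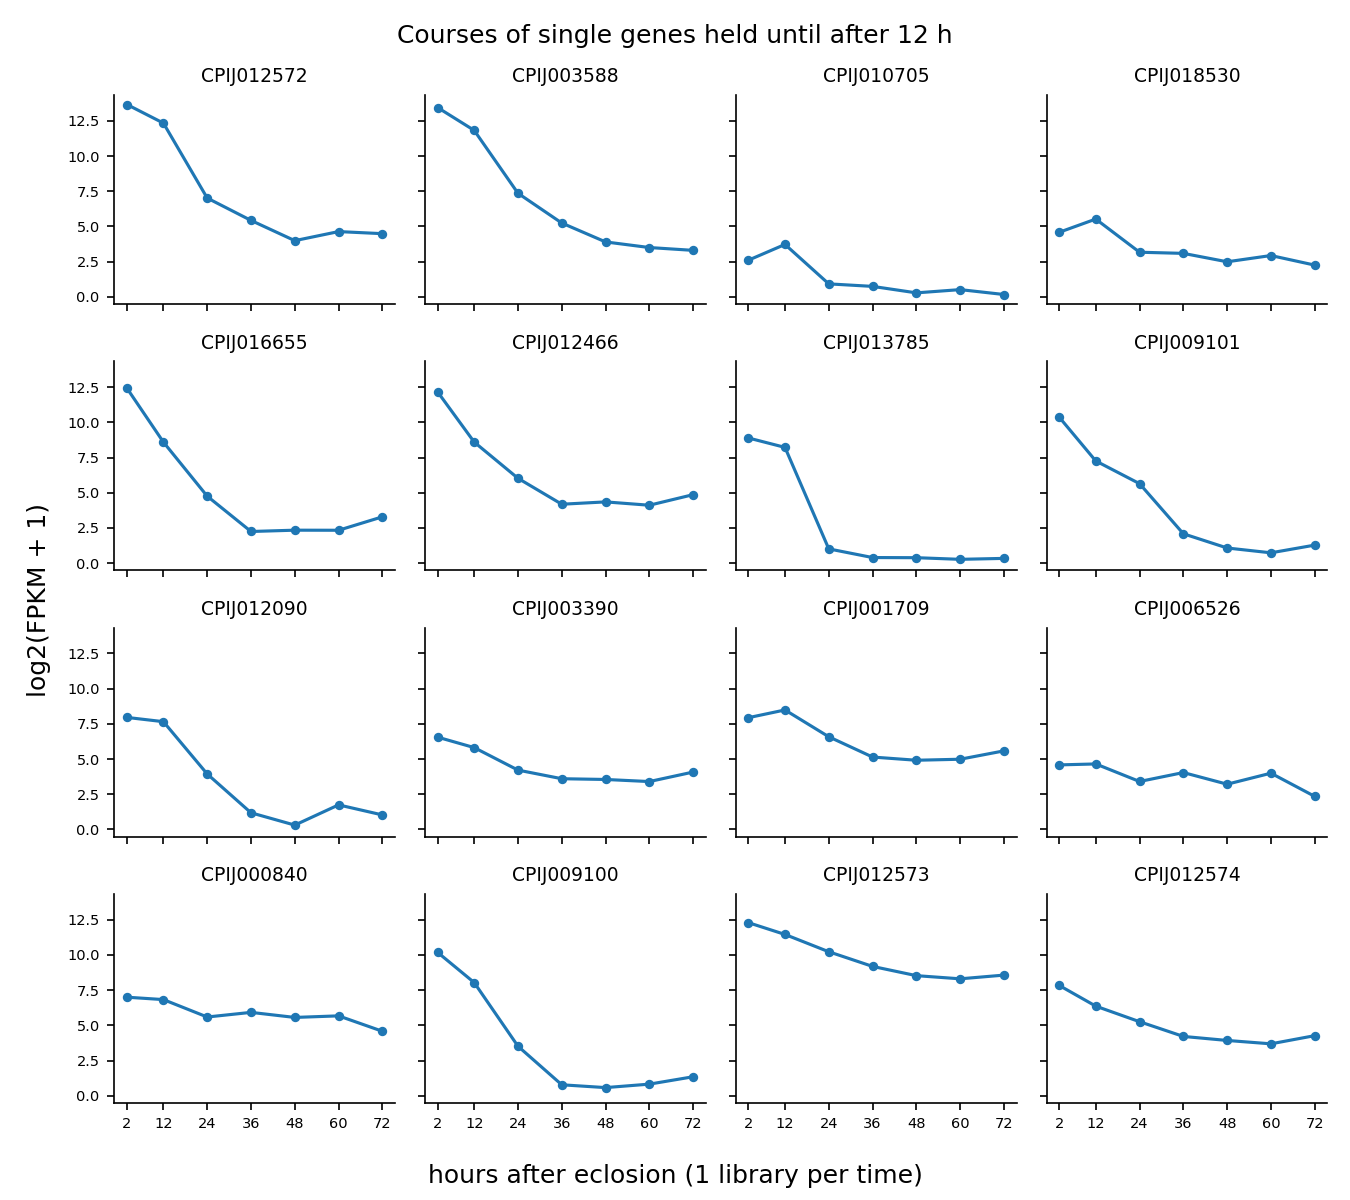
log2(FPKM + 1) (vertical axes, same scale) by hours after eclosion for 16 members given by identifier in the text, 1 library per time. CPIJ013785 has the steepest single step, with 1.02 FPKM at 24 h against 298 FPKM at 12 h, and CPIJ006526 and CPIJ000840 stand higher at 36 h than at 24 h.

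The libraries at 36, 48 and 60 h did not choose the genes, but a percent of the fall is measured between the 2 h and 72 h values, which did. At 36 h the genes had reached a median of 95.5% of the log2 fall between 2 and 72 h, with an interquartile range of 86.4% to 100.1%, and 103 of the 152 had passed 90%. The median was 99.5% at 48 h and 102% at 60 h. At 24 h it had been 72.6%, a value that the rule bounds from below. On this measure most genes were near the end of their fall by 36 h, and 3 genes stood under 50% there. In level a difference remained, with a summed FPKM of 8531 at 36 h against 5451 at 72 h.

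The same measure was taken in the other 2 sets of declining genes. At 36 h the genes mostly lost by 12 h stood at a median of 98.6% of their fall and the genes held through 24 h at 79.8%, and 90% had been passed by 67.8% of the 152 genes and by 13.95% of those held through 24 h. At 60 h the 3 medians were 102%, 103% and 102%, in the order of the 152 genes, those mostly lost by 12 h and those held through 24 h. The measure is 100% at 72 h for every gene by definition, and the spacing of the sets was not tested. In FPKM the medians at 72 h were 3.66, 2.50 and 5.20 in the same order.

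**Figure D4:**
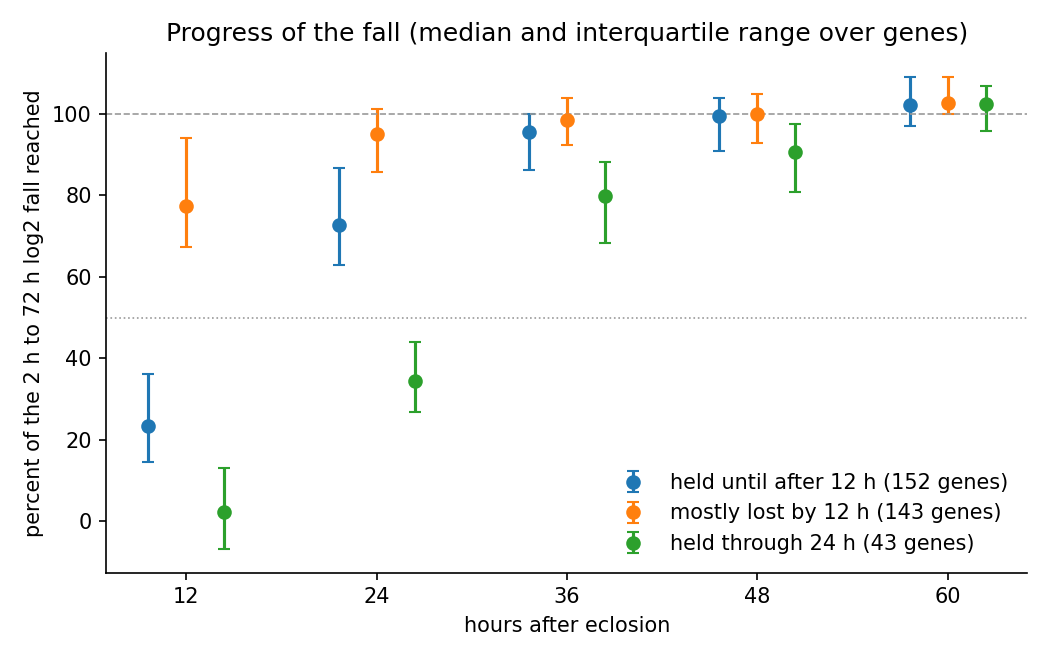
Percent of the log2 fall between 2 and 72 h that was reached (vertical axis) at each time between, as the median (points) and interquartile range (bars) over the genes of 3 sets. At 12 and 24 h the rule sets the order; at 36 h the genes held until after 12 h stand at 95.5% and those held through 24 h at 79.8%, and at 60 h all 3 sets are near 100%, the value every gene has at 72 h by definition.

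From 24 to 36 h, 25 of the 94 members that reached 5 FPKM in either library were at least 2-fold lower, where 1.48% of all 7858 such genes were, and 0 were at least 2-fold higher, where 1.62% were. These are 26.6% of the 94, against 73.2% of the 41 such genes of the set held through 24 h and 3.33% of the 60 of the set mostly lost by 12 h. The 24 h library enters the rule, so these percentages are a description. Among members at 10 FPKM or more at 24 h, the largest fall of this interval was in CPIJ009101, with 1317, 152, 49.1, 3.25, 1.11, 0.663 and 1.43 FPKM from 2 to 72 h. CPIJ012090 came next, with 248, 201, 14.4, 1.27, 0.238, 2.35 and 1.04 FPKM. In both, the level at 36 h was more than 10-fold lower than at 24 h.

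Between 36 and 60 h large steps were rare. From 36 to 48 h, 2 of 70 genes were at least 2-fold lower (0.593% of all 8260 genes) and 0 at least 2-fold higher (0.472%). From 48 to 60 h, 1 of 64 was at least 2-fold lower (0.507% of 8278) and 0 at least 2-fold higher (0.447%). Of all 152 genes, 111 were lower at 48 h than at 36 h, and 107 were lower at 60 h than at 48 h. No share over all genes stands beside these 2 counts. From 48 to 60 h the median over all genes tested was itself below 0, so the second count is no trait of the set. The median log2 change at 48 h relative to 36 h was -0.29 in the 70 members, against 0.18 over all 8260 genes. At 60 h relative to 48 h it was -0.16 in the 64 members, against -0.10 over all 8278 genes, a smaller gap. It was -0.30 in the 52 such genes mostly lost by 12 h and -0.38 in the 27 held through 24 h. From 36 to 60 h the median log2 change was -0.39 in the 70 members that reached 5 FPKM in either library. Over all such genes it was 0.08, in the 49 mostly lost by 12 h -0.31 and in the 28 held through 24 h -0.70. A fall over this interval was thus not particular to the 152 genes.

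A slope over the libraries at 36, 48 and 60 h was tested with limma on every gene that averaged 1 FPKM or more in these 3 libraries. Of the 152 genes, 110 passed this minimum and 42 were too low to be tested. Because the times are equally spaced, the slope per 24 h equals the change in L from 36 to 60 h. The 48 h library enters only the residual, as its departure from a straight line, including any shift of that whole library. Such a departure also holds any difference by time of day, since 36 and 60 h share a time of day and 48 h does not. That part was not tested. The standard errors and p-values are built on such departures and not on sampling error between replicates. Of the 110, 95 had a slope below 0, with a median of -0.35 per 24 h (interquartile range -0.57 to -0.15, median standard error 0.32) on the log2 scale. Over all 11809 genes tested the median slope was 0.06 (interquartile range -0.14 to 0.27) and 41.8% were below 0. The rule asked for a lower level at 72 h than at 2 h, which favours slopes below 0 in members. Differences between members and all genes are therefore a description. At an adjusted p of 0.05 (limma, Benjamini-Hochberg over all genes tested), 6 of the 110 passed with a slope below 0, where 0.44% of all genes tested did, and 0 with a slope above 0, where 0.279% did. At an unadjusted limma p under 0.05, 26 of the 110 passed, all with slopes below 0, where 3.09% of all genes tested passed with slopes below 0. After rescaling of the libraries none of the 6 passed (smallest limma adjusted p of a member 0.19). Of all 11716 genes then tested only 2 passed, against 85 of 11809 before. At an unadjusted limma p under 0.05 there were 31 of 109 members, all with slopes below 0. In either direction, 1096 of all genes were at this level after rescaling, against 831 before. The median slope of the members was then -0.36.

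**Figure D5:**
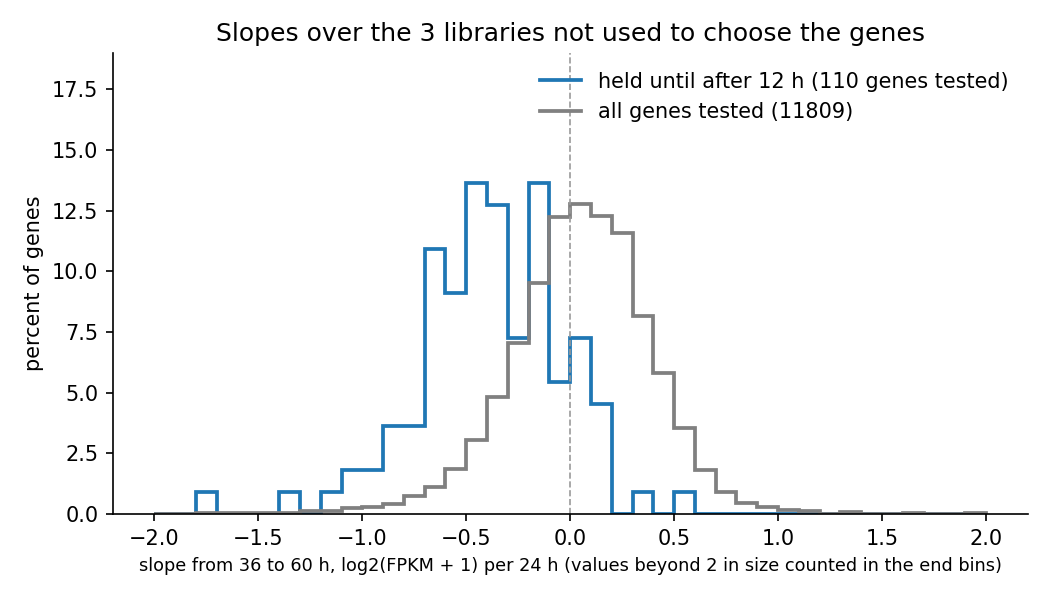
Distribution of the slope from 36 to 60 h, in log2(FPKM + 1) per 24 h (horizontal axis), as the percent of genes per bin of 0.1 (vertical axis), for the 110 tested members (blue) and all 11809 genes tested (grey). The members centre on -0.35 and all genes tested on 0.06.

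The steepest of these slopes was that of CPIJ003588, with -1.74 per 24 h and a standard error of 0.32 over 3 libraries (limma adjusted p = 5.2e-05), and the next that of CPIJ009101, with -1.35 and a standard error of 0.32 (limma adjusted p = 0.0058). The other 4 that passed were CPIJ000852, CPIJ000853, CPIJ003084 and CPIJ001560, with limma adjusted p between 0.021 and 0.047. All 6 were given because they passed, after their values were seen. CPIJ001560 is the most abundant of them late in the series, with 4868, 4065, 1394, 1351, 766, 747 and 424 FPKM from 2 to 72 h. With 3 libraries each gene has 1 residual degree of freedom, the departure of the middle library from a straight line. The spread was taken by limma as equal among genes of like level. These p-values rest on that assumption and on the departure standing in for sampling error, which was not measured.

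The lowest library of a gene was most often that at 60 h. It held the lowest of the 7 values in 74 of the 152 genes, while the 72 h library did so in 41, the 48 h library in 29, the 36 h library in 7 and the 24 h library in 1. Among the 110 genes tested for a slope, the 60 h library was the lowest of these 3 in 68.2%, and in 34.1% of all 11809 genes tested. From 60 to 72 h, 97 of the 152 genes were higher, and 79 after rescaling, with a median log2 change of 0.10. As a percentage, 63.8% of the 152 genes were higher at 72 h than at 60 h, against 70.3% of the 11809 genes tested for a slope. The median log2 change was 0.02 in the 66 members that reached 5 FPKM in either library, against 0.21 over all such genes. By at least 2-fold, 0 of 66 members were higher (0.286% of all 8404 genes) and 4 lower (0.869%). The 60 h library is the shallowest and the median ratio shifts by 0.16 on the log2 scale from 60 to 72 h, and their part in it was not tested.

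A few genes went below their 72 h level by more. CPIJ016655, listed above, was at 3.75, 4.07 and 4.05 FPKM in the libraries at 36, 48 and 60 h and reached 8.78 FPKM in the last, a log2 difference of 1.04 from its lowest value. CPIJ009100 had 1159, 262, 10.5, 0.715, 0.493, 0.772 and 1.55 FPKM from 2 to 72 h, a difference of 0.77. Among members at 20 FPKM or more at 2 h, CPIJ003390 was the farthest past its 72 h level at 36 h, with 93.01, 55.3, 17.6, 11.2, 10.7, 9.57 and 15.9 FPKM. CPIJ001709 was next, with 245, 358, 94.9, 34.3, 29.2, 30.7 and 46.9 FPKM. In all 4 the upturn is small beside the fall before it.

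The slowest members at 36 h had courses of another shape. CPIJ006526 had 23.01, 24.2, 9.60, 15.5, 8.28, 14.97 and 4.09 FPKM from 2 to 72 h and stood at 24.3% of its fall at 36 h. CPIJ000840 had 127, 113, 47.3, 59.7, 46.3, 50.1 and 22.95 FPKM and stood at 44.6%. Both were higher at 36 h than at 24 h and at 48 h, and higher at 60 h than at 48 h and at 72 h. In all, 6 of the 152 genes (3.95%) had this alternation, and 7.93% of the 11809 genes tested for a slope. Its steps are 12 h long, as were light and dark, and a part of the time of day in it was not tested.

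The end level separated genes that were nearly gone from genes that settled at a lower level. The 42 genes under 1 FPKM at 72 h had medians of 19.97, 9.66, 1.06, 0.416, 0.342, 0.288 and 0.386 FPKM from 2 to 72 h. The 17 genes at 100 FPKM or more at 72 h had medians of 2220, 1322, 485, 283, 194, 188 and 189 FPKM. The first step was alike in both, with median log2 changes of -0.96 and -0.75. The low group had reached a median of 87.6% of its fall at 24 h and 99.1% at 36 h, while the high group stood at 62.9% and 83.6%. The added 1 FPKM compresses differences between values near or under 1 FPKM, which raises the percentages of the low group. Whether the low group fell faster was therefore not tested. From 36 to 60 h, which the rule did not use, the median log2 change was -0.13 in the low group and -0.51 in the high group, on a scale that understates changes of low values. The 61 genes at 1 to 10 FPKM and the 32 at 10 to 100 FPKM at 72 h lay between, at 95.5% and 93.4% at 36 h.

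Members with neighbouring identifiers were common, a feature the rule did not use. Of the 152 genes, 30 had another member at the next identifier number and 41 (26.97%) within 2 identifiers, and these formed 18 runs, 15 of 2 genes, 1 of 3 and 2 of 4. Seen from the neighbours, of the 125 next identifiers that were at 5 FPKM or more at 2 h, 27.2% were members, where 2.71% of all 5614 such genes are. The other 2 sets gave like values, with 25% against 2.55% for the genes mostly lost by 12 h and 20% against 0.766% for the genes held through 24 h. The files give no positions, so whether neighbouring numbers are neighbours in the genome was not tested, nor whether similar genes share reads, since the sources used here do not say how such reads were assigned.

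The 41 members in runs held 41.4% of the FPKM of all 152 genes at 2 h. The largest run, CPIJ012570 to CPIJ012574 with 4 members, alone held 4.70% of all FPKM in the 2 h library. In it, CPIJ012573 had 5024, 2813, 1200, 582, 369, 316 and 379 FPKM from 2 to 72 h, beside the 12982 to 21.4 FPKM of CPIJ012572. CPIJ012574 had 227, 81.5, 37.3, 17.6, 14.2, 11.9 and 18.3 FPKM. CPIJ012572 was 605-fold lower at 72 h than at 2 h, against 13.3-fold for CPIJ012573 and 12.4-fold for CPIJ012574. At 72 h CPIJ012573 stood at 379 FPKM, while CPIJ012572 and CPIJ012574, far apart at 2 h, stood at 21.4 and 18.3 FPKM. The number between, CPIJ012571, was under 0.5 FPKM in every library.

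CPIJ006159 had 2042, 711, 134, 68.01, 43.8, 74.5 and 51.3 FPKM and its neighbour CPIJ006160 had 2022, 737, 127, 80.02, 60.1, 75.4 and 67.3 FPKM, a pair chosen after its values were seen. In another pair, also chosen after its values were seen, CPIJ000848 was 6.54-fold lower at 72 h than at 2 h and CPIJ000849 214-fold lower. Over the 30 pairs of members within a run, the correlation of log2(FPKM + 1) over the 7 libraries had a median of 0.985 and ranged from 0.906 to 0.999. Over all 11476 pairs of members the median was 0.964, since all were chosen for the same course. In 15 of the 30 pairs the levels at 2 h were at least 4-fold apart.

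The course is not peculiar to genes with a 4-fold fall. The correlation with the median course of the set, over 7 libraries, was at least 0.98 in 89 of the 152 members and in 23 of the 5462 other genes at 5 FPKM or more at 2 h. The 89 were chosen for this course and enter the median. All 23 had a log2 fall under 2 between 2 and 72 h. This follows largely from the rule, since most genes of this course with a larger fall would be members. The closest was CPIJ008289 (r = 0.996), with 1449, 1091, 617, 485, 423, 392 and 468 FPKM from 2 to 72 h. CPIJ011916 was next (r = 0.993), with 25.9, 21.0, 16.1, 13.5, 13.8, 13.3 and 14.5 FPKM. These 2 genes have a like course with a smaller fall. After rescaling, the log2 change from 2 to 72 h was -2.20 in CPIJ008289, past the limit of 2, and -1.34 in CPIJ011916.

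The borders of the set are not gaps in the data. The smallest log2 fall inside it was 2.003, against 1.994 for the nearest gene outside. The nearest values at 12 h were 49.6% of the fall inside and 50.8% outside, and at 24 h 50.1% inside and 49.7% outside. At 2 h the lowest member was at 5.09 FPKM and the nearest gene outside at 4.99 FPKM.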

How the data were processed

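Whole-body messenger RNA of 7 pools of females was sequenced as read pairs of 51 nucleotides, per the labels' protocols. The deposited table holds 1 value per gene and library. Its unit was read as FPKM, since the series' design text says the authors used TopHat, Cufflinks and Cuffdiff and the values are not whole. Per the submitters' processing notes CASAVA 1.8 and Trimmomatic were also used. No source used here names the genome build, the annotation or any scaling between libraries. The absolute depth is unknown and no counting interval was computed.

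Values were set on the scale log2(FPKM + 1). Counts of 2-fold differences used genes that reached 5 FPKM in either library. The slope from 36 to 60 h was fitted with limma 3.58.1 (mean-dependent prior) in R 4.3.3. Python 3.11.15 did the rest. Correlations are Pearson's r and carry no p. With 1 sample per time there is no biological error. The members, lists and tests were chosen with earlier results of these data known. Genes were given by identifier as the 2 extremes of each comparison, except where stated.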

Additional observations from a re-analysis of the deposited data

How the results depend on the processing

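The number of genes chosen was 239 after rescaling of the libraries and 86 with a log2 fall of at least 3, and between 119 and 183 under the other 5 settings tried (a pseudocount of 0.1, a minimum of 1 or 20 FPKM at 2 h, 0.4 or 0.6 of the fall as the dividing share). The median percent of the fall reached at 36, 48 and 60 h was 94.6%, 99.4% and 104% with a pseudocount of 0.1, 93.3%, 98.5% and 100.3% after rescaling, and 95.4%, 99.3% and 102% for members with at least 20 FPKM at 2 h. Members with a slope from 36 to 60 h that passed limma's test numbered 0 after rescaling, with the usual and with a robust prior (the robust prior was added after the data were seen), against 6 with the deposited values; limma then no longer took the spread as equal among genes of like level (prior degrees of freedom 7.36 and 8.73). Of all genes tested, 2 passed after rescaling with either prior, against 85 with the deposited values. Members that passed numbered 4 to 6 under the other 4 settings. The median slope was -0.47 with a pseudocount of 0.1, -0.36 after rescaling with either prior, and -0.25 both without a minimum and with a mean of at least 1 FPKM over all 7 libraries, where more low genes entered. Members at least 2-fold lower at 48 h than at 36 h numbered 4 with a pseudocount of 0.1 and 4 after rescaling, against 2. The share over all genes rose as well, to 0.823% and 0.824%, against 0.593%. Without a minimum, 1 member was 2-fold higher at 60 h relative to 48 h, against 0, and after rescaling 0 were 2-fold higher at 12 h relative to 2 h, against 1. After rescaling, 53 (22.2%) of the 239 genes had another member at the next identifier and 68 (28.5%) within 2. Leaving out 1 of the 3 libraries leaves the slope no residual degrees of freedom. No paired analysis was possible because no time was sampled more than once.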
